A study of Mus musculus with 8 samples.

Results

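General splicing factors and heterogeneous nuclear ribonucleoproteins (hnRNPs) were examined in the aging mouse hippocampus. They were taken by gene symbol: Srsf followed by a digit, symbols starting with Hnrnp, Snrp, Sf3a or Sf3b, and Mbnl, Nova, Ptbp or Elavl followed by a digit. Matching of probe accessions to genes gave 106 probes for 63 such genes, out of 39408 tested probes. Those with a gene name stood for 19742 genes. Each sample was hippocampus dissected by hand and whole from untreated wild type C57BL/6J mice, and its Cy3-labelled RNA was read on 1 single-colour Agilent array. Mice aged 3 months (3M, n = 4) were compared with mice aged 29 months (29M, n = 4), and both groups had been kept in their home cages. The paper states that mice of about 29 months were bought when already old and then held for some months in its rooms. How long the 3M mice were held there is not given, so age and housing history cannot be told apart. Whether the samples of a group came from separate litters or dissection days is not given, so p-values measure the spread between these samples. The comparison addresses whether RNA levels of splicing regulators differ between the young and the old hippocampus.

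Splicing removes introns from a pre-mRNA and joins its exons. The spliceosome does this with small nuclear ribonucleoproteins (snRNPs), whose Sm core and U1 and U2 proteins are encoded by Snrp genes, while the SF3A and SF3B complexes hold U2 at the branch point. SR proteins (Srsf genes) mostly promote the use of an exon they bind, hnRNPs often oppose it, and Mbnl, Nova, Ptbp and Elavl proteins set tissue-specific choices, with Nova proteins and most Elavl proteins being neuronal.

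Values are log2 intensities after variance stabilising normalization, a scale on which a difference of 1 is a 2-fold change, and they are compared between arrays for 1 probe, never between probes. A change is the 29M mean minus the 3M mean. Calls needed both an adjusted p under 0.1 (limma, Benjamini-Hochberg over all tested probes) and a log2 change beyond 0.5 in size. Of the 106 probes, 105 were well above background on all arrays of at least 1 group. The second Mbnl3 probe was well above background on 1 array of each group, so no fold is given for it. Where a gene had several probes, the one with the highest mean over the 8 arrays stands for the gene, and 32 of the 63 genes had more than 1. In 14 of these 32 genes the probes changed with opposite signs, in no gene by more than 2 standard errors (SE) in both directions. With 4 arrays a group, precision is limited by their number.

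The 8 arrays correlated with each other at 0.9915 to 0.9977. They lay on 3 slides, with 3M replicate 1 and 29M replicates 3 and 4 on slide 1, replicate 2 of each group on slide 2, and the other three on slide 3. Between 76.19% and 84.99% of spots per array were well above background, the lowest share being that of 3M replicate 1. The same array stood apart for some splicing factor probes, as the next paragraphs show, and results that rest on it are given with and without it. Among markers of cell types, 0 of 12 neuronal genes were called (median change −0.00 over 13 probes). Of 10 genes for immature neurons and proliferation 4 were called lower (Mki67, Igfbpl1, Cdk1 and Sox11). Over all tested probes 0.809% were called lower and 1.25% higher. Of 10 microglial genes 3 were called higher (Trem2, Ctss and C1qa), of 8 astrocyte genes Gfap was called higher, and of 6 oligodendrocyte precursor genes Gpr17 was called lower. None of 8 oligodendrocyte, 8 endothelial and 7 choroid plexus genes was called. In lists this short a count of 0 is close to the share of the array and does not show stable levels.

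**Figure D1:**
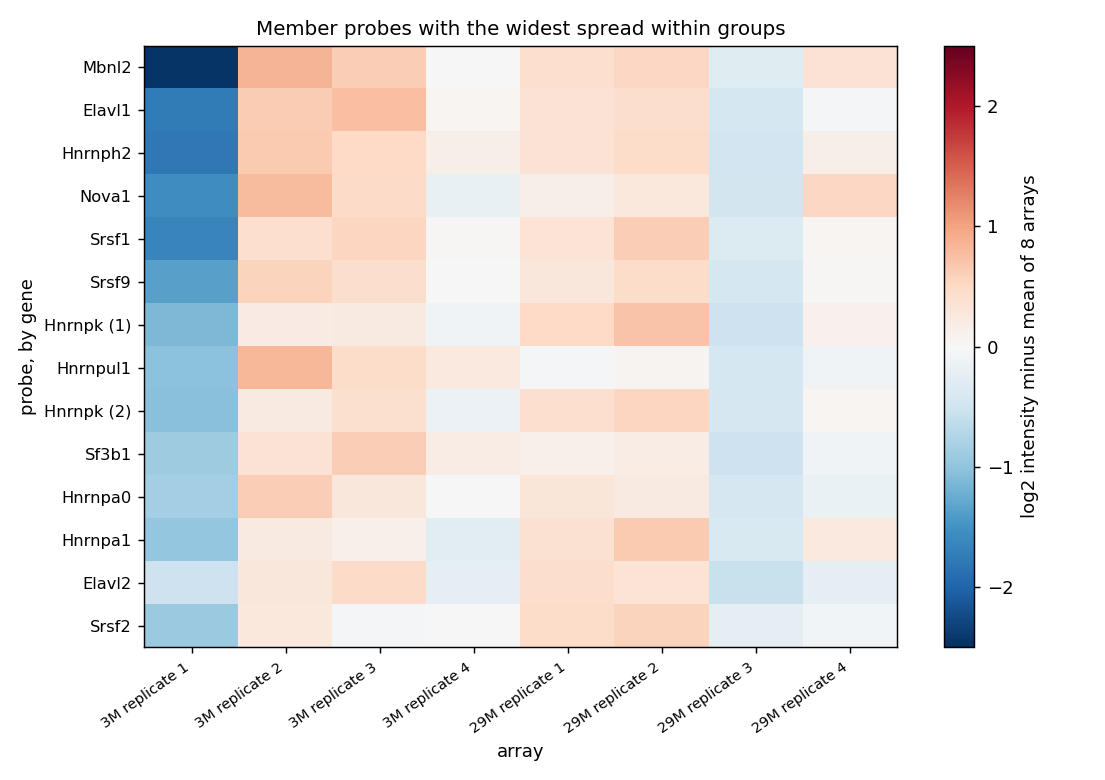
The 14 splicing factor probes with the widest spread within groups (rows, named by gene, the widest at the top) on the 8 arrays (columns). Colour gives the log2 intensity minus the mean of the 8 arrays for that probe, with blue for below and red for above. On 3M replicate 1 the deviation was between −2.44 and −0.51 for all 14, and on 29M replicate 3 it was between −0.56 and −0.25.

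A small set of splicing factor probes varied widely within groups. The within-group standard deviation (SD) was above 0.454, the 95th percentile over all tested probes, for 14 of the 106 probes (13.2%). They belonged to 13 genes: the SR protein genes Srsf1, Srsf2 and Srsf9, the hnRNP genes Hnrnpa0, Hnrnpa1, Hnrnph2, Hnrnpk (both probes) and Hnrnpul1, the branch point factor gene Sf3b1, and Mbnl2, Nova1, Elavl1 and Elavl2. The array with the lowest value was 3M replicate 1 for 13 of the 14, whereas it was the lowest for 38.9% of all probes with so wide a spread. All 14 were well above background on all arrays of at least 1 group, and among such wide probes the share was 47.0%. The value on 3M replicate 1 minus the mean over the remaining 3M arrays had a median of −1.40 and a range of −2.93 to −0.69 (log2).

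For Mbnl2, a muscleblind protein that binds CUG-rich RNA, the wide probe (A_51_P189269) read 9.79 on 3M replicate 1 and 13.08, 12.85 and 12.22 on the other 3M arrays. The 29M arrays read 12.66, 12.75, 11.92 and 12.59. For Hnrnph2, which binds G-rich RNA, the 3M arrays read 12.06, 14.51, 14.35 and 14.01, and the 29M arrays 14.22, 14.31, 13.37 and 13.99. In both, 3M replicate 1 lay below all other arrays, 29M replicate 3 was the next lowest, and the remaining arrays of the groups overlapped. Elavl1, the widely expressed member of the Elavl family that stabilises AU-rich mRNAs, read 10.92, 13.29, 13.41 and 12.71 at 3M and 13.02, 13.10, 12.21 and 12.64 at 29M. Hnrnpk, a poly(C)-binding hnRNP, read 12.46, 13.79, 13.82 and 13.50 at 3M and 14.10, 14.31, 13.07 and 13.71 at 29M on its brighter probe. Elavl1 was again lowest on 3M replicate 1, and so was Hnrnpk.

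The low value on 3M replicate 1 was not shared by every probe of a gene. Of the 13 genes, 9 also had a probe without the wide spread. Another Mbnl2 probe read 15.57 on 3M replicate 1 and 15.24 to 15.77 on the other 3M arrays. The brightest Srsf1 probe read 13.38 on that array against 13.14 to 13.39, and the brightest Hnrnpa0 probe 15.75 against 15.33 to 15.57. In these 3 genes the same array was inside or above the range of its group on the brightest probe. Of all 92 splicing factor probes without the wide spread, 38% were lowest at 3M on 3M replicate 1. Of the 11 among them that belong to the 9 genes, 4 were (36.4%). They were the other Srsf2 probe (11.35 against 11.71 to 11.84), the third Mbnl2 probe (12.70 against 13.18 to 13.40), the brighter Nova1 probe (9.63 against 10.08 to 10.52) and the other Elavl1 probe (11.75 against 12.42 to 12.50). Over the other 92 splicing factor probes the median deviation of 3M replicate 1 was −0.03. The part of array quality, spot position or transcript form in this difference was not tested.

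Leaving out 3M replicate 1 turned the sign of the median change of these probes. With it the 14 probes had a median change of 0.24, and 10 of them were higher in 29M. Without it the median was −0.24, and 3 of them were higher. This array lay below the mean of the other 3M arrays on all 14, so leaving it out had to lower every change. Without it, their within-group SD fell from between 0.459 and 1.10 to between 0.261 and 0.459. The 14 were chosen by their SD, so part of this fall follows from that choice. The 95th percentile of the SD over all probes was then 0.397, and 4 splicing factor probes were above it. On slide 1 alone, which holds 3M replicate 1, their median change was 0.91, against −0.14 on slide 2 and 0.10 on slide 3. Values for single probes of the 14 are given below with this limit.

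**Figure D2:**
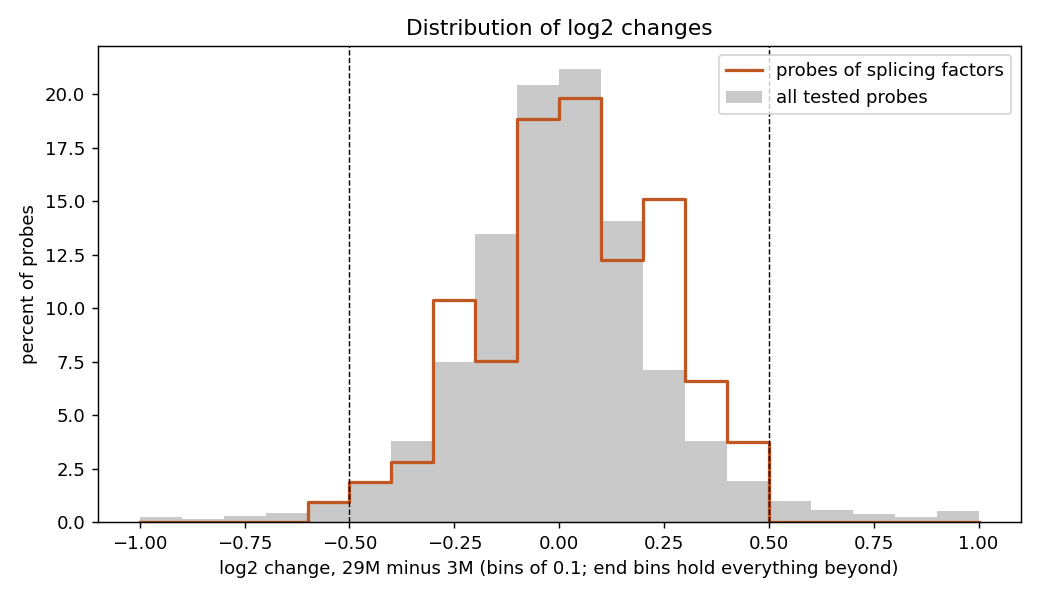
Distribution of the log2 change between 3M and 29M (x axis, bins of 0.1, dashed lines at −0.5 and 0.5) as a percent of probes (y axis) for all 39408 tested probes (grey bars) and the 106 splicing factor probes (orange line). The splicing factor probes range from −0.51 to 0.50, and probes of other genes reach further on both sides.

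None of the 106 probes was called higher in 29M and none was called lower, where 2.06% of all tested probes were called (1.25% higher and 0.809% lower). At an unadjusted p under 0.05 by limma, 17 probes passed, which is 16.0% against 16.9% of all probes. Of the 17, 7 were higher (8.24% of all probes) and 10 lower (8.68% of all probes). Without a threshold on the change, 1 probe had an adjusted p under 0.1 (Elavl2), or 0.943%, against 3.53% of all probes. An absolute change of at least 0.5 was seen for 1 probe (Snrpd3), against 4.71% of all probes. The 2 groups did not overlap for 8 probes (7.55%, against 11.1% of all probes), 2 of them higher (5.52% of all probes) and 6 lower (5.54% of all probes). Of all probes well above background on all arrays of at least 1 group, 18.9% passed that unadjusted p by limma. In 12.7% of them the groups did not overlap. With shares of 1.25% and 0.809%, a count of 0 calls among 106 probes does not set the splicing factors apart from the array.

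The changes were small in both directions. Their median was 0.04 (0.003 over all probes), with 61 probes above 0 and 45 below, and their range was −0.51 to 0.50. The 95% interval of the change lay inside −0.5 to 0.5 for 64 of the 106 probes (60.4%, against 68.4% of all probes). For 33 of the 63 genes it did so on every probe. For the other probes a change of 0.5 in at least 1 direction was within the interval, so these arrays do not show that they were stable. The median within-group SD was 0.165 over the splicing factor probes and 0.160 over all probes. Within slides the median change was 0.10, 0.003 and −0.005 on slides 1 to 3. The change had 1 sign on all 3 slides for 55 probes (51.9%, against 44.6% of all probes), among them 14 of the 17 with an unadjusted p under 0.05.

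Without 3M replicate 1, 2 probes were called, both lower in 29M (1.63% of all probes were called lower). They were Nova1 (log2 change −0.57, adjusted p = 0.0472) and the second Hnrnpul1 probe (−0.63, adjusted p = 0.0768), both by limma. This Hnrnpul1 probe is one of the 14 wide probes, with a change of −0.25 (SE 0.34) over all arrays, and the brighter Hnrnpul1 probe had 0.17 (SE 0.16). At an adjusted p under 0.1 alone there were then 5 probes, which added Nova2 (−0.46), Elavl2 (−0.30) and Snrpb (0.34), or 4.72% against 7.15% of all probes. The median change over the 106 probes was then −0.01. When arrays were weighted by their quality in limma, 2 probes were called lower (1.73% of all probes), Nova1 (−0.60, adjusted p = 0.0426) and Snrpd3 (−0.52, adjusted p = 0.0849).

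**Figure D3:**
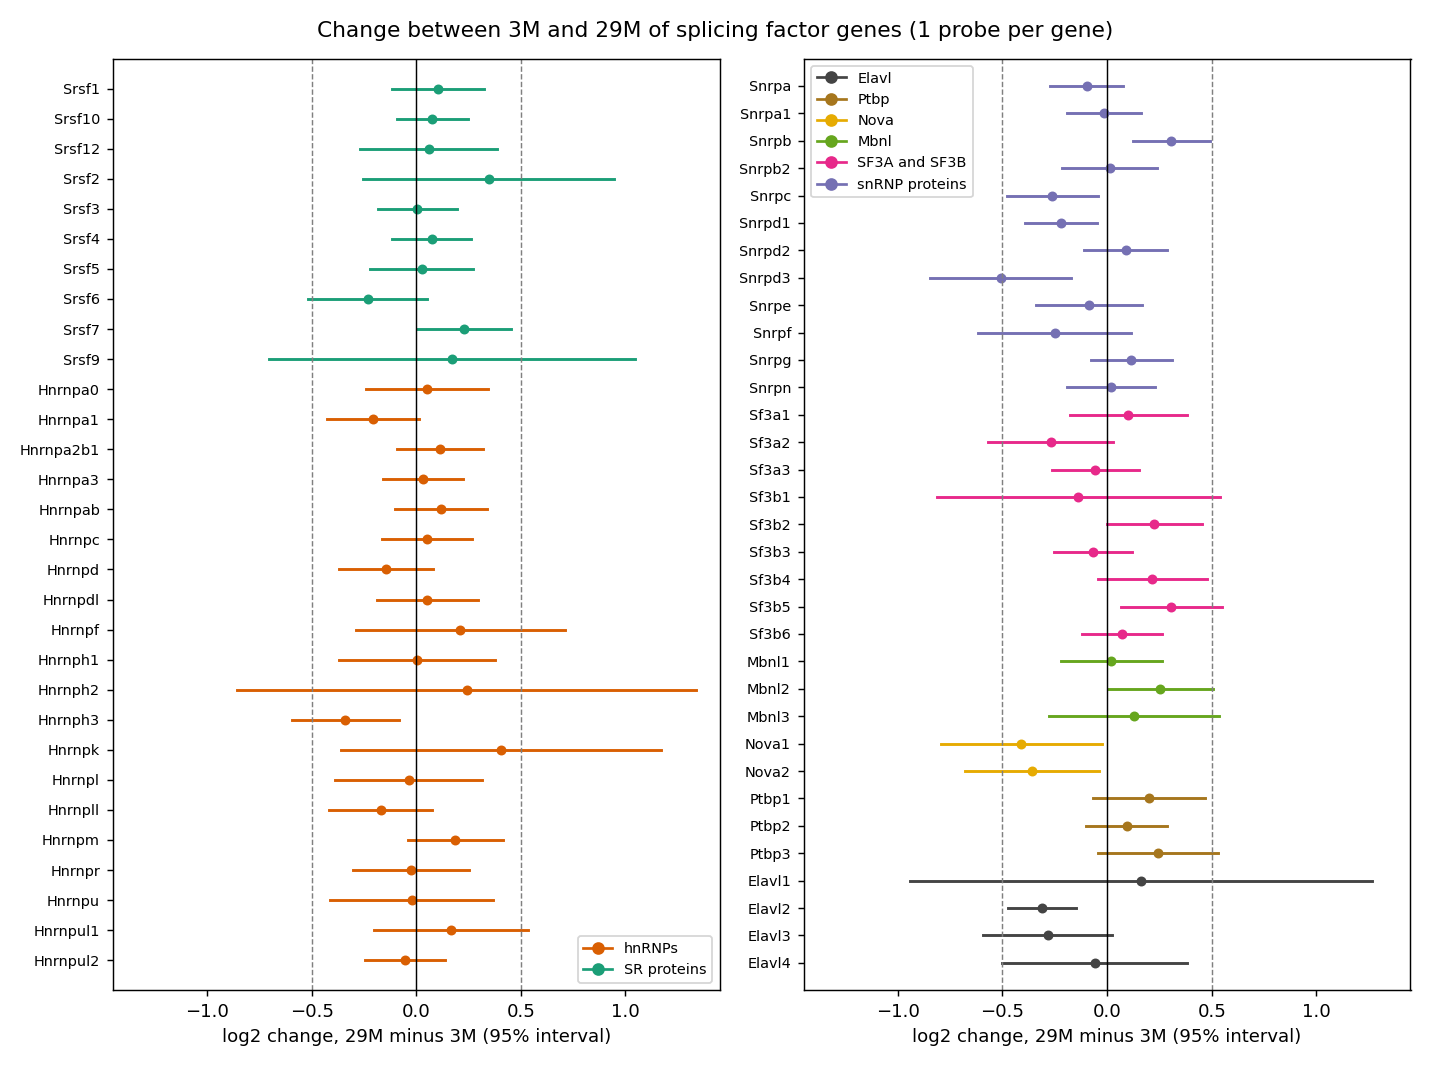
Log2 change from 3M to 29M (points; x axis) with its 95% interval (lines) for the 63 genes, each by the probe with the highest mean, coloured by family. Dashed lines mark −0.5 and 0.5; no gene was called, the point of Snrpd3 (−0.51) alone lies beyond a dashed line, and the long intervals of Hnrnph2, Elavl1, Srsf9, Hnrnpk and Sf3b1 belong to the probes with a low value on 3M replicate 1.

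Among the neuronal RNA-binding proteins, Elavl2 had the smallest p of all members. Elavl2 (HuB) is a neuronal member of the Elavl family, whose proteins bind AU-rich elements and introns. Its brightest probe (A_55_P2291054) read 13.58, 13.52, 13.60 and 13.48 at 3M and 13.27, 13.25, 13.18 and 13.23 at 29M. All 29M arrays lay below all 3M arrays, with a change of −0.31 (SE 0.07, limma adjusted p = 0.0718), under the 0.5 that a call needed. The change was −0.38, −0.27 and −0.27 on slides 1 to 3, and −0.21 (adjusted p = 0.258) where the model was fitted to processed signals. The dimmer Elavl2 probe, one of the 14 with a wide spread, had a change of −0.01 (SE 0.27).

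Elavl4 (HuD), another neuronal member, gave different values on its 2 probes. The dimmer one read 9.46, 9.81, 9.92 and 9.36 at 3M and 9.31, 9.35, 9.02 and 8.95 at 29M, so that the highest 29M array was just below the lowest 3M array. Its change was −0.48 (SE 0.15, limma adjusted p = 0.157). The brighter probe read 12.26, 12.42, 13.07 and 12.31 at 3M and 12.60, 12.66, 12.48 and 12.07 at 29M, with overlapping groups and a change of −0.06 (SE 0.20). The sign of that last value turned to 0.13 without 3M replicate 3. Elavl3 (HuC), also neuronal, read 14.73, 15.18, 15.13 and 14.85 at 3M and 14.78, 14.93, 14.47 and 14.58 at 29M. The Elavl3 groups overlapped, with a change of −0.28 (SE 0.14, adjusted p = 0.336).

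Elavl1, the member found in most cell types, had changes of 0.16 (SE 0.49) and 0.15 (SE 0.19) on its 2 probes. The first is one of the 14 wide probes, and without 3M replicate 1 its change was −0.39. Over the whole Elavl family 5 of 7 probes were below 0, with a median of −0.06. An unadjusted p under 0.05 by limma was passed by 2 (28.6%, against 16.9% of all probes), both lower. Without 3M replicate 1 all 7 were below 0, with a median of −0.30.

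Nova1 and Nova2, neuronal proteins that bind YCAY clusters and regulate synaptic exons, had the lowest family median (−0.36 over 3 probes). The brighter Nova1 probe (A_55_P2174576) read 9.63, 10.52, 10.08 and 10.21 at 3M and 9.74, 9.60, 9.60 and 9.88 at 29M. The groups overlapped only through 3M replicate 1, and the change was −0.41 (SE 0.17, limma adjusted p = 0.264). It was 0.10 on slide 1, −0.93 on slide 2 and −0.41 on slide 3, and −0.27 without 3M replicate 2. Nova2 read 12.96, 13.19, 13.34 and 13.56 at 3M and 13.11, 12.86, 12.98 and 12.67 at 29M, a change of −0.36 (SE 0.14, adjusted p = 0.243) with overlap between the groups. The other Nova1 probe, with 6.94 on 3M replicate 1 and 8.31 to 9.29 on the other 3M arrays, had a change of 0.23 (SE 0.45).

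In RNA of a whole hippocampus, fewer cells of a type and less RNA per cell cannot be told apart. Beside the values of Elavl2, Elavl4, Nova1 and Nova2, the mean score of the neuronal marker list ran from −0.07 to 0.12 over the 3M arrays and from −0.03 to −0.002 over the 29M arrays. The score is the mean over the genes of a list of the log2 intensity minus the mean of the 8 arrays. That of the immature neuron and proliferation list ran from −0.02 to 0.53 at 3M and from −0.31 to −0.22 at 29M, without overlap. Its part in the values of the neuronal RNA-binding proteins was not tested.

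The polypyrimidine tract binding proteins (Ptbp), which repress exons next to pyrimidine-rich stretches, had changes above 0 on all 5 probes, with a median of 0.20 (0.11 without 3M replicate 1, all 5 still above 0). Ptbp1, the form of non-neuronal cells and progenitors, read 11.94, 12.53, 12.26 and 12.16 at 3M and 12.46, 12.41, 12.45 and 12.38 at 29M on its brighter probe (change 0.20, SE 0.12, adjusted p = 0.438). The 29M values lay within the 3M range, and the Ptbp1 change was 0.11 without 3M replicate 1 and 0.094 with processed signals scaled to the 75th percentile. Ptbp2, the form of neurons, had a change of 0.09 (SE 0.09). The 2 probes of Ptbp3, first described in blood cells, had changes of 0.24 (SE 0.13) and 0.33 (SE 0.14, unadjusted p = 0.0451 by limma), and 29M replicate 3 lay within the 3M range on both. The microglial list had a score of −0.35 to −0.04 at 3M and 0.08 to 0.31 at 29M. Between groups it moved in the same direction as Ptbp1 and Ptbp3. Within groups, 3M replicate 1 and 29M replicate 3 were highest in microglial score (−0.04 and 0.31). The same arrays were lowest in Ptbp family score (−0.24 and −0.05). They also lay below the mean over all arrays on every splicing factor probe with a wide spread. An order that rests on these arrays cannot show whether the microglial and Ptbp scores are related. Other lists with a median change above 0 included those of oligodendrocytes (0.18) and choroid plexus (0.19). The part of these lists in the Ptbp values was not tested.

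The muscleblind proteins (Mbnl), which drive adult-type exon choices, differed by probe. Mbnl2, the main form of the brain, read 15.57, 15.77, 15.59 and 15.24 at 3M and 15.78, 15.74, 15.79 and 15.88 at 29M on its brightest probe. The change was 0.25 (SE 0.11, limma adjusted p = 0.291), and the groups overlapped only through 3M replicate 2. It was 0.091 (adjusted p = 0.726) by the 75th percentile of processed signals and 0.15 without 3M replicate 4. The other Mbnl2 probes had changes of −0.03 (SE 0.16) and 0.50 (SE 0.62), the last being the probe that read 9.79 on 3M replicate 1. Mbnl1 had a change of 0.02 (SE 0.11) and the first Mbnl3 probe one of 0.13 (SE 0.18), both under their errors.

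**Figure D4:**
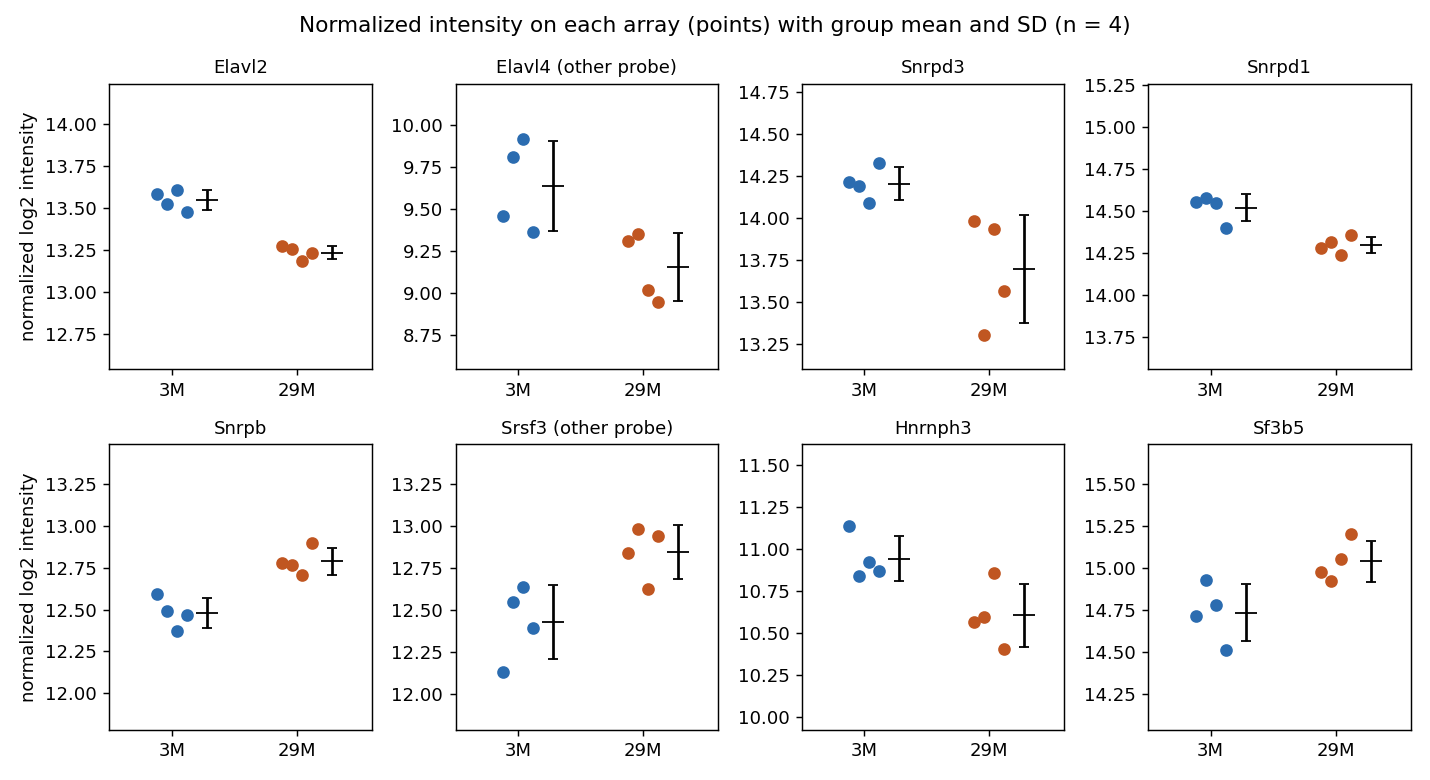
Normalized log2 intensity (y axis, each panel 1.7 units high) of 8 probes on each array (points, 4 of 3M in blue and 4 of 29M in orange) with the group mean and SD (black, n = 4). The groups do not overlap for Elavl2, the dimmer Elavl4 probe, Snrpd3, Snrpd1 and Snrpb; they overlap for the second Srsf3 probe, Hnrnph3 and Sf3b5.

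The snRNP protein genes held 5 of the 10 probes that were lower at an unadjusted p under 0.05 by limma. Of their 21 probes for 12 genes, 13 were below 0, with a median change of −0.08. Together with 1 higher probe, 28.6% of the snRNP probes passed that p, against 16.9% of all probes, and none was called. The groups did not overlap for 4 lower probes (5.54% of all probes) and 1 higher one (5.52% of all probes), together 23.8% against 11.1%.

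The Sm proteins form the ring around the snRNA. Snrpd3 (SmD3; probe A_55_P2008747) read 14.21, 14.19, 14.09 and 14.33 at 3M and 13.98, 13.31, 13.93 and 13.56 at 29M. Every 29M array lay below every 3M array, with a change of −0.51 (SE 0.15, limma adjusted p = 0.136), the lowest of all members. It was below 0 on each slide (−0.46, −0.89 and −0.23). Snrpd1 (SmD1) was lower on both of its probes. The brighter read 14.55, 14.58, 14.54 and 14.40 at 3M and 14.28, 14.32, 14.24 and 14.35 at 29M, and the other read 13.89, 13.82, 13.95 and 13.80 at 3M and 13.57, 13.63, 13.65 and 13.54 at 29M. Neither Snrpd1 probe overlapped between groups, and the changes were −0.22 (SE 0.08, adjusted p = 0.192) and −0.27 (SE 0.08, adjusted p = 0.121).

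Snrpb, which encodes SmB, moved the other way. Its probe (A_52_P277854) read 12.59, 12.49, 12.37 and 12.47 at 3M and 12.78, 12.77, 12.71 and 12.90 at 29M. All 29M arrays were above all 3M arrays, with a change of 0.31 (SE 0.08, limma adjusted p = 0.110) and values of 0.21, 0.28 and 0.36 on slides 1 to 3. Snrpn, the imprinted neuronal relative of Snrpb, had a change of 0.02 (SE 0.09) on its brightest probe, which was lowest on 3M replicate 1, and of 0.24 (SE 0.16) and 0.33 (SE 0.16) on the others. Snrpb and Snrpn are close in sequence, and whether a probe of one also responds to the other was not tested.

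The remaining Sm genes showed no shared direction. Snrpd2 (SmD2) had changes of 0.09, 0.06 and −0.01 on 3 probes, and Snrpe (SmE) of −0.09 and −0.12 on 2. Snrpf (SmF) had a change of −0.25 (SE 0.16). Snrpg (SmG) differed by probe, with 0.12 (SE 0.09) on the brighter and −0.28 (SE 0.12, unadjusted p = 0.0364 by limma) on the other, where the groups did not overlap. Of the U1 proteins, Snrpc had −0.26 (SE 0.10, adjusted p = 0.216) and −0.15 (SE 0.12), and Snrpa had −0.10 (SE 0.08). Of the U2 proteins, Snrpa1 had −0.01 and −0.08 and Snrpb2 had 0.01, each smaller than its SE.

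The subunits of SF3A and SF3B had 5 of 10 probes above 0 and a median change of 0.01. At an unadjusted p under 0.05 by limma 1 of the 10 passed (10%, against 16.9% of all probes). Without 3M replicate 1, 4 of the 10 passed (20.3% of all probes did), with 5 above 0 and a median of 0.04. Sf3b5, a small SF3B subunit, read 14.72, 14.93, 14.78 and 14.51 at 3M and 14.98, 14.92, 15.05 and 15.21 at 29M. The groups overlapped by 29M replicate 2 alone, and the change of 0.31 (SE 0.11, limma adjusted p = 0.194) was −0.00 on slide 2. Sf3b2 read 15.40, 15.25, 15.64 and 15.37 at 3M and 15.68, 15.68, 15.49 and 15.71 at 29M, a change of 0.23 (SE 0.10) in which 29M replicate 3 lay within the 3M range. With processed signals scaled to the 75th percentile Sf3b5 had 0.13 and Sf3b2 0.091. Sf3a2 had a change of −0.27 (SE 0.13, adjusted p = 0.342). Sf3b1, which contacts the branch point and is the subunit mutated in some leukaemias, had −0.14 with an SE of 0.30 and is one of the wide probes. Sf3b4 had 0.22 (SE 0.12) and −0.19 (SE 0.09) on its 2 probes.

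SR proteins had 17 of 19 probes above 0, with a median change of 0.10, and 2 passed an unadjusted p under 0.05 by limma, both higher (10.5% against 16.9% of all probes). Without 3M replicate 1, 14 of the 19 were above 0, with a median of 0.092. The mean score of the SR genes was −0.20 on that array, −0.01 to 0.03 on the other 3M arrays and 0.01 to 0.10 on the 29M arrays. Srsf7 read 13.59, 13.42, 13.66 and 13.62 at 3M and 13.67, 13.71, 13.81 and 14.02 at 29M, without overlap, for a change of 0.23 (SE 0.10, adjusted p = 0.288), which was 0.12 without slide 1. Its other probe had 0.04 (SE 0.12). Of 3 Srsf3 probes, the second (A_55_P2177614) read 12.13, 12.55, 12.64 and 12.39 at 3M and 12.84, 12.98, 12.62 and 12.94 at 29M. That probe had a change of 0.42 (SE 0.13, adjusted p = 0.148), with 29M replicate 3 inside the 3M range, whereas the brightest Srsf3 probe had 0.01 (SE 0.08). Srsf3 is the smallest SR protein and has an exon that leads to decay of its own mRNA.

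Srsf2 (SC35), which marks nuclear speckles, had the same change on both probes, 0.35 with an SE of 0.27 on the brighter and of 0.16 on the other. The second probe read 11.35, 11.84, 11.71 and 11.72 at 3M and 12.27, 12.25, 11.67 and 11.82 at 29M, so that 29M replicates 1 and 2 were above all 3M arrays and the other two were within the 3M range. Without 3M replicate 1 the changes of Srsf2 were 0.098 (limma adjusted p = 0.824) and 0.25 (adjusted p = 0.414). With the slide as a term in the fit the brighter Srsf2 probe was called higher (0.53, limma adjusted p = 0.0865, with 0.941% of all probes called higher). Without the 3 arrays of slide 1 the other Srsf2 probe was (0.50, adjusted p = 0.0656, with 1.95% of all probes). Srsf6 had −0.23 (SE 0.13) and 0.25 (SE 0.15) on its 2 probes, the first being −0.11 without 29M replicate 4. Srsf5, the gene with the brightest SR probe, had 0.03 (SE 0.11), Srsf4 0.07 (SE 0.08), Srsf10 0.08 (SE 0.08) and Srsf12 0.06 (SE 0.15).

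Over all arrays the hnRNPs, the largest family, had the lowest share of probes with a small p. Of 35 probes for 20 genes 19 were above 0, the median change was 0.03, and 2 passed an unadjusted p under 0.05 by limma (5.71% against 16.9% of all probes), 1 in each direction. Without 3M replicate 1, 4 of the 35 passed that p (20.3% of all probes did). SR proteins (1 of 19), Mbnl (0 of 6) and Ptbp (0 of 5) then had lower shares. No hnRNP probe separated the groups (11.1% of all probes did). Hnrnph3, a minor member of the H group, read 11.14, 10.84, 10.92 and 10.87 at 3M and 10.56, 10.60, 10.85 and 10.41 at 29M. Its change was −0.34 (SE 0.11, adjusted p = 0.180), with 29M replicate 3 inside the 3M range. Its relative Hnrnph1 had 0.00 (SE 0.17), and the sign of that value depended on the normalization.

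Hnrnpa1, which blocks exon inclusion, had −0.21 (SE 0.10) on its brighter probe and 0.44 (SE 0.29) on the dimmer one, which is one of the wide probes. Hnrnpa2b1, which carries mRNA along dendrites, had 0.11 (SE 0.09) and 0.19 (SE 0.11). The 7 probes of Hnrnpa3 ranged from −0.21 to 0.07. Hnrnpm had 0.19 (SE 0.10, adjusted p = 0.389), and Hnrnpc, which binds U-rich introns, had 0.05 (SE 0.10) and 0.26 (SE 0.11, unadjusted p = 0.0358 by limma). Hnrnpk had 0.41 (SE 0.34) and 0.29 (SE 0.32) and Hnrnpf 0.21 (SE 0.22) and 0.22 (SE 0.25), errors as large as the changes or nearly so. Without 3M replicate 1 these were 0.095 and −0.011 for Hnrnpk and −0.022 and 0.012 for Hnrnpf. Hnrnpu, a chromatin-associated scaffold, had −0.02 (SE 0.17), Hnrnpd (AUF1) −0.14 (SE 0.10) and Hnrnpr −0.03 (SE 0.12). For Hnrnpll the value of 29M replicate 3 was an outlier spot and left out, and the change over the other 7 arrays was −0.17 (SE 0.11).

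Outside these families, 124 further splicing genes with 181 probes were read from lists of spliceosome subunits, SR-related proteins and kinases, exon junction proteins and other RNA-binding proteins. Their median change was 0.04, 17.1% of the probes passed an unadjusted p under 0.05 by limma (16.9% of all probes), and 3 genes were called by 1 probe each (2.06% of all probes were called). Pspc1, a paraspeckle protein, read 13.08, 12.78, 12.65 and 12.68 at 3M and 11.91, 11.44, 12.30 and 11.54 at 29M, and it fell by 1.003 on the log2 scale (SE 0.19, adjusted p = 0.0364). Srpk3, a kinase of SR proteins, read 10.84, 10.42, 10.39 and 10.72 at 3M and 11.03, 11.14, 10.98 and 11.37 at 29M (change 0.53, adjusted p = 0.0851). The Srpk3 call was lost in 11 of 20 alternatives, and that of Pspc1 without 3M replicate 2 (adjusted p = 0.105). Of 3 Rbm3 probes, 1 was called (0.80, adjusted p = 0.0859), while the brightest, with its highest value on 29M replicate 4, had 0.64 (adjusted p = 0.157) and the remaining one −0.30. Rbm3 is a cold-induced RNA-binding protein.

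The Celf and Rbfox genes, which like Nova and Mbnl encode tissue-specific splicing regulators, had 1 call among 19 probes for 9 genes (2.06% of all probes were called). Celf3, a neuronal Celf protein, read 13.87, 13.12, 12.52 and 13.43 at 3M and 10.87, 10.72, 11.01 and 10.45 at 29M. The groups were separated by more than 1 log2 unit, and Celf3 fell by 2.47 on the log2 scale (SE 0.25, limma adjusted p = 0.00341). Only 1 probe stood for Celf3, so no other probe could be set beside it. The largest absolute change among the 106 splicing factor probes was −0.51.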

How the data were processed

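Sample titles gave the groups and the replicate numbers. The authors deposited 1 scanner output per array, made per the file headers with Feature Extraction 10.7.3.1, with intensities on a linear scale. A deposited table of the whole series held background intensities under column names that did not match the arrays and was not used. Control and outlier spots (127 to 190 per array) were left out and no spot was saturated. Median spot intensities were normalized by a variance stabilising model (an implementation in R 4.3.3, trimming quantile 0.9, 7 iterations) to log2 values, which understate changes of dim probes; the deposited files hold no log2 values. Probes were named by matching accessions to RefSeq genes of assembly GRCm38.p6 (26055 of 39429 probes). Age was the term of a linear model in limma 3.58.1, with eBayes and Benjamini-Hochberg adjustment over all probes with at least 3 usable arrays per group. Model, thresholds and type of normalization were those of the study's methods. Intervals are 95% intervals of the moderated model. The fit was tested on simulated data with a capped spread and planted changes larger than those of the splicing factors. That test does not bear on changes as small as theirs.

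Members and lists were chosen with earlier results of these data known. Named were all Mbnl, Nova, Ptbp and Elavl genes, in each other family the 3 genes with the smallest p and the brightest gene, and called genes of the other lists; further members were named after their values were seen. Alternatives covered normalization, filters, slide and replicate blocks, array weights and each array left out.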

Additional observations from a re-analysis of the deposited data

Results flagged for a closer look

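In 4 of 80 groups of 4 values examined, 1 array lay far from the other three; chance gives about 4 in 80. Snrpn read 16 on 3M replicate 1 against 16.26 to 16.31 on the other 3M arrays. Sf3b2 read 15.49 on 29M replicate 3 against 15.68 to 15.71. Rbm3 read 16.25 on 29M replicate 4 against 15.53 to 15.63 on its brightest probe. The mean of the Mbnl genes, as a deviation from the 8 arrays, was −0.2017 on 3M replicate 3 against −0.0317 to −0.01718.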

How the results depend on the processing

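The count of 0 called splicing factor probes, and of 0 genes, held under normalization of processed signals, normexp with quantile normalization, the dim filter, kept outlier spots, a random slide block, the trended prior and an adjusted p under 0.05. These settings called 1.24% to 2.89% of all probes they tested, so a count of 0 among 106 probes says little about the splicing factors. With slide as a fixed block 1 probe was called higher (Srsf2, against 0.941% of all probes). With array weights 2 were called lower (1.73% of all probes), Nova1 (−0.60) and Snrpd3 (−0.52). With no threshold on the change 1 was called lower (Elavl2), where 3.53% of all probes passed in either direction. Without the 3 arrays of slide 1, an alternative chosen after seeing the data, 1 was called higher (Srsf2, against 1.95% of all probes). The median change was then −0.0071. Leaving out 1 array gave 0 higher and 0 to 2 lower calls, where 1.02% to 3.73% of all probes were called. The median was −0.013 to 0.054, and both calls came without 3M replicate 1. Replicate numbers showed no pairing of the samples (same-number correlations −0.24, 0.21, −0.23 and 0.07), though so few values cannot exclude one. The replicate block gave 0 calls higher and 0 lower, where 1.04% of all probes were called. Of 620 values of 31 named genes over the alternatives 569 kept direction and side of the threshold and 34 reversed. Hnrnph1 was −0.15 with the 75th percentile, −0.0045 with normexp, −0.14 with the model on processed signals, −0.023 with array weights, −0.039 without slide 1 and −0.14 to 0.13 without single arrays. Elavl4 was 0.042 with the fixed slide block, 0.033 with array weights, 0.035 without slide 1 and −0.14 to 0.13 without single arrays. Srsf5 was −0.024 with the fixed slide block, −0.034 without slide 1 and −0.024 to 0.094 without single arrays. Snrpn was −0.034 with array weights, −0.049 without slide 1 and −0.054 to 0.050 without single arrays, and Elavl1 was −0.087, −0.079 and −0.39 to 0.44 likewise. Mbnl1 was −0.055 without slide 1 and −0.056 to 0.084 without single arrays, and Mbnl3 was −0.027 to 0.22. Averaging all probes of a gene gave 0.12 for Hnrnpa1 and 0.0092 for Srsf6. Celf3 kept its call in 20 of 20 alternatives, Srpk3 lost it in 11, and Pspc1 lost it without 3M replicate 2. The cause was not tested.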
